A study of Mus musculus with 6 samples.

Results

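Imprinted genes are transcribed mainly from the copy inherited from 1 parent, and 35 of them, chosen by name, were followed here in mouse embryonic fibroblasts. The brightest probe set that carries a gene's symbol alone stands for that gene. Of the 35 genes, 31 had such a probe set and 25 had one bright enough to be tested, out of 13038 named genes tested in all. H19 was found only on a probe set that also carries the symbol of a microRNA gene, and Zrsr1, Dio3 and Rtl1 had no probe set of their own symbol, so these 4 are not analysed here. Phlda2, Zim1, Peg10, Usp29, Snrpn and Ascl2 had a mean signal under the filter of 39.4, with single arrays between 8.17 and 76.7, and were not tested. The study hybridised the RNA of 3 wild-type (Zmpste24+/+) and 3 Zmpste24-/- cultures to Affymetrix Mouse Genome 430 2.0 arrays, each culture to its own array. Cells of both genotypes were C57BL/6 fibroblasts taken from E13.5 embryos and grown to passage 3 in medium with fetal calf serum, with no other allele or agent named in the labels. Cultures carry the numbers 1 to 3 within a genotype, and the labels mention pairs. Whether equal numbers mark a pair is not stated, so pair and partner below mean only cultures of equal number. The labels do not say how many embryos gave each culture, so p-values measure the spread between these 6 samples.

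Most imprinted genes are governed by a DNA methylation mark, set in the egg or the sperm, that decides which parental copy is active. The marks lie in control regions that often govern a cluster of genes, and many clusters hold a long noncoding RNA made from 1 parental copy and protein-coding genes made from the other. As a group, paternally expressed genes are known for favouring fetal growth and maternally expressed genes for restraining it, and many members are abundant in embryonic mesenchyme and decline after birth. ZMPSTE24 is the protease that matures lamin A, and cells without it keep the uncut precursor in the nuclear envelope. The arrays sum both parental copies, so the parental split below is taken from textbook knowledge and was not measured.

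Zmpste24 itself had signals of 3850, 2249 and 2043 in wild-type cultures 1 to 3 and of 365, 182 and 226 in Zmpste24-/- cultures 1 to 3. Markers of fibroblasts were present throughout, with 14 of 14 tested and summed signals of 135043 to 157293. The arrays numbered 1 stood apart from the rest: they correlated with each other at 0.985 and with the other 4 arrays at 0.927 to 0.934, whereas those 4 correlated at 0.98 to 0.987 among themselves. Xist, the noncoding RNA of the inactive X chromosome, had signals of 5324, 69.3 and 43.7 in wild type and of 6669, 4766 and 6660 in Zmpste24-/-. The Y-linked genes Eif2s3y and Kdm5d were high only in wild-type cultures 2 and 3, at 531 and 1341 for Eif2s3y and at 326 and 415 for Kdm5d. Sex and genotype therefore cannot be told apart in numbers 2 and 3, and only the number 1 pair was of like sex by these transcripts.

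No imprinted gene passed the test between the genotypes, but most were slightly higher in Zmpste24-/-. Of the 25 tested genes, 17 had a higher mean in Zmpste24-/-, against 6394 of all 13038 named genes tested. Their median difference was 0.12 on the log2(signal + 16) scale, against -0.004 over all 13038. The median of the imprinted genes was 0.117 in pair 1, 0.114 in pair 2 and 0.125 in pair 3. Rian, Kcnq1ot1 and Mest had the highest differences, at 0.80, 0.47 and 0.39, and Rasgrf1, Slc22a18 and Magel2 the lowest, at -0.74, -0.59 and -0.28. This scale adds 16 to every signal and so understates the change of dim genes.

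In limma without a block, 0 of 25 imprinted genes passed at an adjusted p under 0.05, as did 0% of the 27022 probe sets tested, and every imprinted gene had an adjusted p of 0.9999. At an unadjusted p under 0.05, 0 of the 25 imprinted genes and 349 of the 27022 probe sets were counted. With the culture number as a replicate block, 0 imprinted genes passed, against 0.0185% of probe sets (5 of 27022), while 9 of 25 were under an unadjusted 0.05, as were 2430 of 27022 probe sets. By pairs of equal culture number, 11 of 25 imprinted genes (44%) were higher in Zmpste24-/- in all 3 pairs, against 15.8% of probe sets. These were Copg2, Dlk1, Grb10, Impact, Kcnq1ot1, Meg3, Mirg, Peg3, Plagl1, Rian and Ube3a. Igf2r and Ndn, 2 of 25 (8%), were lower in all 3 pairs, against 16% of probe sets. The groups did not overlap for 1 gene, Ube3a, which was higher in Zmpste24-/- on all arrays, where 2.22% of probe sets were. None lay wholly lower in Zmpste24-/-, where 3.03% of probe sets did.

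The median moved when single arrays were left out. It dropped to 0.03 when Zmpste24-/- replicate 3 was left out, and to 0.06 when wild-type replicate 2 or Zmpste24-/- replicate 1 was, and lay between 0.10 and 0.14 with any of the other 3 arrays removed. With an array missing, number 1 weighs more in one genotype than in the other, and the number 1 cultures differed from the rest in many imprinted genes, as given below. The same holds for the genotype differences of single genes given below with an array left out. Without wild-type replicate 1, the genotype difference of 9 genes changed sign (Airn, Asb4, Commd1, Dlk1, Gnas, Igf2r, Ndn, Nnat and Slc38a4), and leaving out each of the other arrays turned between 1 and 6 genes. Markers of neural and glial cells, a known site of expression of several members, had a higher mean in Zmpste24-/- for 7 of 9 tested, with a median of 0.38, and 0 of them passed. Their medians in pairs 1, 2 and 3 were 0.67, 0.407 and -0.173. Of the 9, 3 were higher in all 3 pairs, against 15.8% of probe sets. Their summed signals were 2114 to 3125 in wild type and 2877 to 3623 in Zmpste24-/-. Their part in the differences of the imprinted genes was not tested. In whole cultures, fewer cells of a type and less RNA per cell cannot be told apart.

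Split by the active parental copy, 7 of 10 maternally expressed genes were higher in Zmpste24-/-, with a median difference of 0.08, and 10 of 14 paternally expressed genes, with a median of 0.15. The maternal genes include Ube3a, which is made from both copies in most cells other than neurons, so its label may not hold in fibroblasts. The difference between the 2 kinds was not tested. The medians in pairs 1, 2 and 3 were 0.006, 0.071 and 0.122 for the maternal genes and 0.119, 0.166 and 0.151 for the paternal genes, so pair 1 showed next to no median difference in the maternal genes. Leaving out wild-type replicate 3 moved the maternal median to 0.02 and leaving out Zmpste24-/- replicate 2 moved it to 0.16. The paternal median was -0.01 without wild-type replicate 1 and 0.01 without Zmpste24-/- replicate 3. Gnas, which makes maternal, paternal and biallelic transcripts and encodes the stimulatory G protein alpha subunit, had signals between 14245 and 15401, with no difference beyond 0.04 in any pair.

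**Figure D1:**
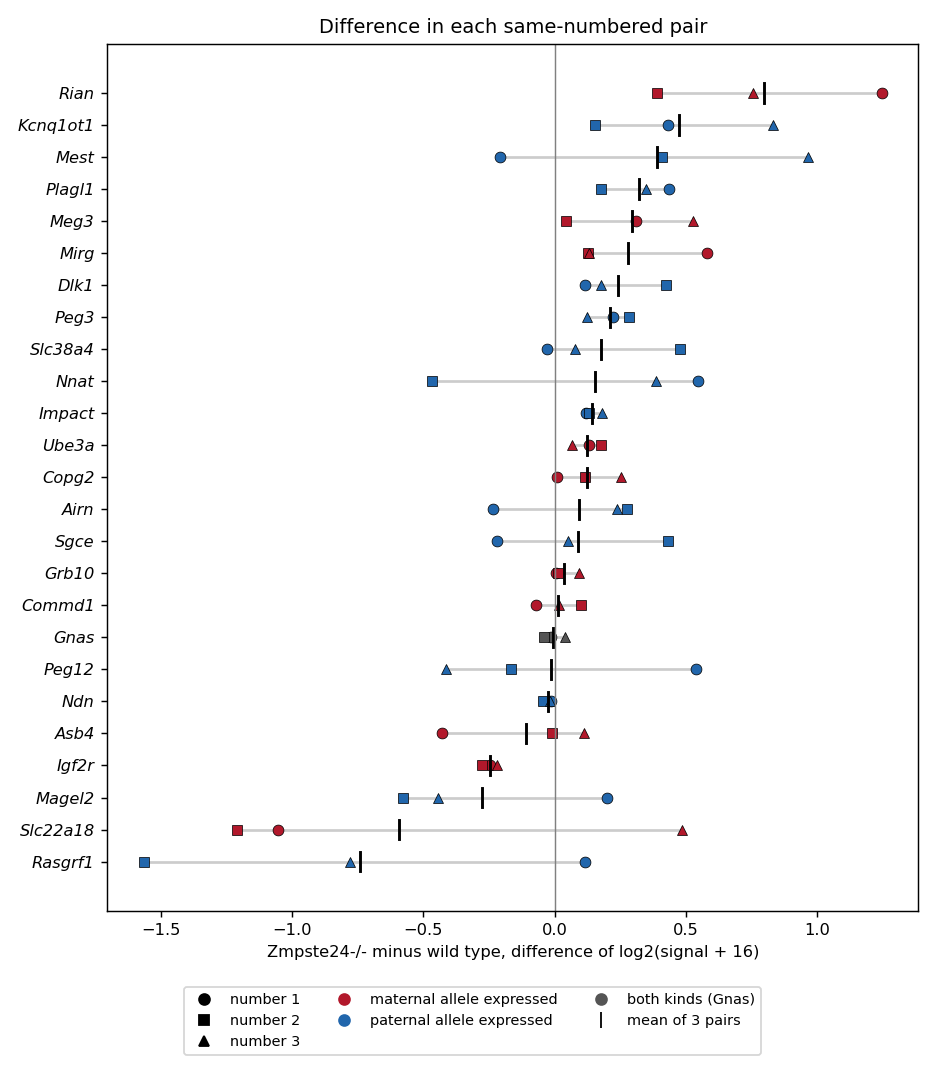
Difference between Zmpste24-/- and wild type (horizontal axis, log2(signal + 16)) in each of the 3 same-numbered pairs, for the 25 tested imprinted genes; symbols mark the pair, colours the active parental copy, black bars the mean of 3 pairs and grey lines the range. Rian lies at 1.25, 0.39 and 0.76 on the right, Igf2r is the lowest gene whose 3 pairs agree in sign, and Rasgrf1 spans from -1.56 to 0.12.

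The Dlk1-Dio3 cluster on chromosome 12 held the gene with the highest difference. Its paternal copy makes Dlk1, a transmembrane protein related to Notch ligands that holds preadipocytes undifferentiated, and Rtl1 and Dio3. Its maternal copy makes the noncoding RNAs Meg3, Rian and Mirg, which are often described as parts of 1 long transcription unit. Rian carries small nucleolar RNAs and Mirg a row of microRNAs. The start regions of the members on which the results turn are shown to make their difference in CpG content visible. They were not chosen as the control regions that hold the imprint marks, so their CpG counts do not describe an imprint. Each is the 300 bases from 250 before to 50 after a RefSeq start on assembly GRCm38.p6, 5′ to 3′ on the strand of the gene. Capitals mark TGCCGC, the letters that the imprint-keeping protein ZFP57 is known to bind when methylated, on either strand (GCGGCA where it lies on the other strand).

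Meg3: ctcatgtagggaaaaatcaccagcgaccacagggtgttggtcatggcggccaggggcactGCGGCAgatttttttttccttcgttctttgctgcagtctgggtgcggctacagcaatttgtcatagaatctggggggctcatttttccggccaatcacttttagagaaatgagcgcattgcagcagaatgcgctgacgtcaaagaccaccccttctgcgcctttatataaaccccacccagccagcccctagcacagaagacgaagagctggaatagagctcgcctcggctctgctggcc
Rian: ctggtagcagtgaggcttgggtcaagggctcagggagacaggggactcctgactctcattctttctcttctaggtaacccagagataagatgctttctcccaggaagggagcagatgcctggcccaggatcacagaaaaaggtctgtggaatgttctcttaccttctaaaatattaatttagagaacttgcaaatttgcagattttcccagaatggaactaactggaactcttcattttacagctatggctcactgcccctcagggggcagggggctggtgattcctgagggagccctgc
Dlk1: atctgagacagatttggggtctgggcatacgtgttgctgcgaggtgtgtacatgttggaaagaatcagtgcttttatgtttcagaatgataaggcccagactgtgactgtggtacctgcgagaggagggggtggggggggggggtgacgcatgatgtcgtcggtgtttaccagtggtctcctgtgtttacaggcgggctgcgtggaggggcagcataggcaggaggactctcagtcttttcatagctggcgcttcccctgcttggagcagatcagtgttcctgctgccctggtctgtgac
Slc38a4: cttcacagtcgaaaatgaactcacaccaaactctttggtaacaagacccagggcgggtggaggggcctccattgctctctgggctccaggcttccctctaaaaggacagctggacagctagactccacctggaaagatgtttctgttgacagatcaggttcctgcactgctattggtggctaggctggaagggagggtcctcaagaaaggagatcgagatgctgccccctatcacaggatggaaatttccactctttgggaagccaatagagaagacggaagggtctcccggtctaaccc

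The Meg3 window (chr12:109540746-109541045, plus strand), at the more upstream of its 2 RefSeq starts, holds 13 CpG sites and 1 such motif. The window at the other start (chr12:109545148-109545447, plus strand) holds 1 CpG site and 0 motifs. The Rian window (chr12:109603695-109603994, plus strand) holds 0 of either. The Dlk1 window (chr12:109452573-109452872, plus strand) holds 9 CpG sites and the Slc38a4 window (chr15:97055907-97056206, minus strand, the most upstream of its 3 RefSeq starts) holds 5, both without the motif. Over 44 windows of 30 members, 10 (22.7%) held TGCCGC, against 11.6% of all 32851 windows and 18.5% of the 13481 windows of tested genes. The median CpG count was 12.5 in the members' windows and 20 in those of tested genes. A match of letters is a description only, and binding or methylation was not measured.

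Rian had signals of 1346, 1099 and 2803 in wild-type cultures 1, 2 and 3 and of 3216, 1447 and 4747 in Zmpste24-/- cultures 1, 2 and 3. It was higher in Zmpste24-/- in each pair, but wild-type culture 3 lay above Zmpste24-/- culture 2, so the groups overlapped. The difference was 0.80 (SE 0.52, adjusted p = 0.9999 in limma without a block). With the replicate block its SE was 0.14 and its adjusted p 0.256, the lowest of the 25 genes in that fit. The difference was 1.25 in the like-sex pair 1, 0.39 in pair 2 and 0.76 in pair 3. Removing Zmpste24-/- replicate 2 gave 1.27, removing wild-type replicate 3 gave 1.20, removing wild-type replicate 2 gave 0.53 and removing Zmpste24-/- replicate 3 gave 0.42. The other 3 tested probe sets of Rian gave 0.13, 0.37 and 0.44.

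Meg3 is a noncoding RNA that restrains growth of cultured cells. Its signals were 4186, 2467 and 2820 in wild type and 5193, 2541 and 4074 in Zmpste24-/-. Each Zmpste24-/- culture was above its wild-type partner, culture 2 by very little, and the groups overlapped. The difference was 0.29 (SE 0.31 unblocked, and 0.09 with the replicate block, where limma's adjusted p was 0.477), with 0.31, 0.04 and 0.53 in pairs 1, 2 and 3. It was 0.06 without Zmpste24-/- replicate 1 and 0.58 without Zmpste24-/- replicate 2. Of 11 tested Meg3 probe sets, 10 were higher in Zmpste24-/-, over a range from -0.19 to 0.88. The highest of these came from a dim probe set with a signal of 10.1 in wild-type culture 2.

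Mirg had signals of 465, 634.5 and 733.5 in wild type and 704, 695 and 804 in Zmpste24-/-. Only wild-type culture 1 stood low, pair 1 held most of the difference, and the groups overlapped. The difference was 0.28 (SE 0.21 unblocked, and 0.12 with the replicate block, where limma's adjusted p was 0.554), and 0.10 without wild-type replicate 1. Both tested probe sets of Mirg were higher in Zmpste24-/- in all 3 pairs.

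Dlk1 had signals of 849.7, 2820 and 3315 in wild type and of 923, 3796 and 3750 in Zmpste24-/-. Both number 1 cultures were far below the other 4, and within each number Zmpste24-/- was the higher. The difference was 0.24 (SE 0.72 unblocked, and 0.08 with the replicate block, where limma's adjusted p was 0.489). It changed sign where the numbers were unbalanced, to -0.37 without wild-type replicate 1, -0.10 without Zmpste24-/- replicate 2 and -0.09 without Zmpste24-/- replicate 3. All 4 tested genes of the cluster, of both parental kinds, were thus higher in Zmpste24-/- in every pair, and none passed the test. For Rian, Meg3 and Mirg, wild-type culture 3 lay above Zmpste24-/- culture 2, so this count rests on matching cultures by number.

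**Figure D2:**
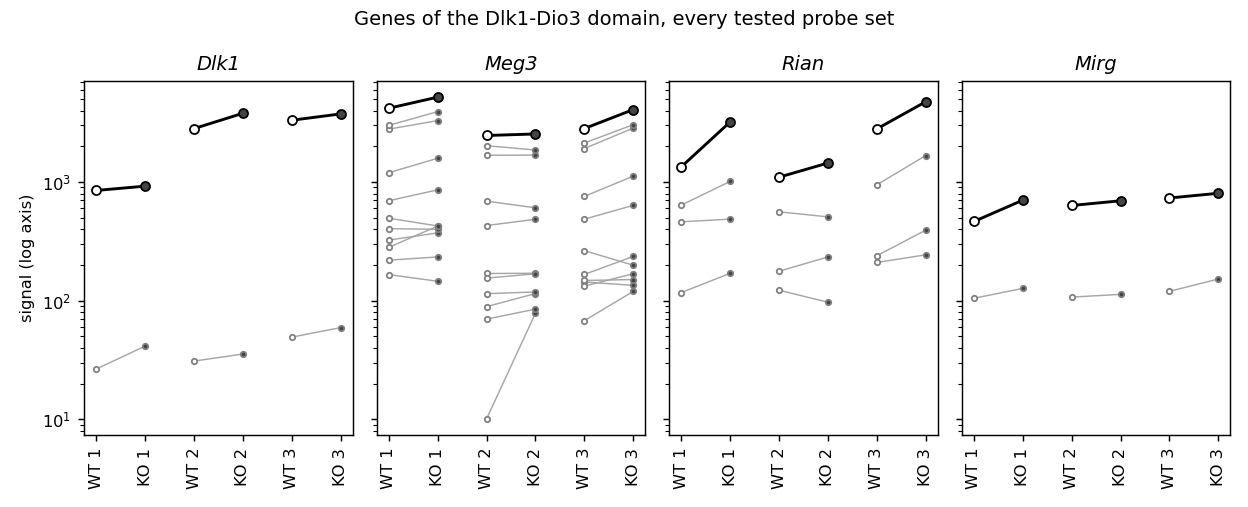
Signal (vertical log axis) of every tested probe set of Dlk1, Meg3, Rian and Mirg on each array, with wild type (WT, open) and Zmpste24-/- (KO, filled) of the same number joined; heavy lines are the brightest probe set of each gene and thin grey lines the others. The heavy lines slope upward in each pair of all 4 genes, Dlk1 is low in number 1, and Rian is highest in number 3.

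MicroRNAs lie within several of these transcripts and are shown because a host transcript is the only trace of them on these arrays, which do not measure mature microRNAs. Rian and Mirg hold 3 and 10 hairpins in RefSeq (GRCm38.p6). Mature sequences are given 5′ to 3′ with the seed, bases 2 to 8, in capitals: miR-341-3p and miR-370-3p lie in Rian, miR-770-3p in Meg3, miR-453, miR-496a-5p and miR-410-3p in Mirg, and miR-335-5p in Mest.

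miR-341-3p: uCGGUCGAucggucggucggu
miR-370-3p: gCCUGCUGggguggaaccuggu
miR-770-3p: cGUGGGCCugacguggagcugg
miR-453: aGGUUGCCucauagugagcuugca
miR-496a-5p: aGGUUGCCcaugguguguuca
miR-410-3p: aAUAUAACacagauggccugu
miR-335-5p: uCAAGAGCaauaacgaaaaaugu

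Among these, miR-453 and miR-496a-5p of Mirg share the seed GGUUGCC, and the others each have a seed of their own.

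Growth regulators outside that cluster differed in both directions. Plagl1, a paternally expressed zinc finger factor that restrains proliferation and is known to act on other imprinted genes, had signals of 6163, 4609 and 4594 in wild type and of 8350, 5214 and 5859 in Zmpste24-/-. It was higher in Zmpste24-/- in each pair, and only wild-type culture 1 reached into the other group. The difference was 0.32 (SE 0.21 unblocked, and 0.06 with the replicate block, where limma's adjusted p was 0.27), and 0.12 without Zmpste24-/- replicate 1. Its 3 tested probe sets gave 0.25 to 0.33.

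Igf2r, the maternally expressed receptor that carries IGF2 to the lysosome, had signals of 4455, 2217 and 2423 in wild type and of 3754, 1827 and 2081 in Zmpste24-/-. Each Zmpste24-/- culture was below its partner by a like amount, and the groups overlapped because both number 1 cultures were high. The difference was -0.25 (SE 0.37, and 0.06 with the replicate block, adjusted p = 0.390 in limma with it), with -0.25, -0.28 and -0.22 in pairs 1, 2 and 3. Without wild-type replicate 1, where number 1 was left in Zmpste24-/- alone, it was 0.07. The other tested Igf2r probe set, at signals of 1838 to 3103, gave -0.09, with -0.20, -0.34 and 0.26 in pairs 1, 2 and 3. Airn, the paternal noncoding RNA that silences Igf2r in cis, ranged from 50.3 to 149.9 and differed by 0.09. It was lower in Zmpste24-/- in pair 1 and higher in the other pairs.

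Grb10, an adaptor that dampens insulin and IGF receptor signalling, was among the steadiest, with signals of 10247 to 11170 and a difference of 0.04. A second Grb10 probe set, dimmer at 135.5 to 361.6, gave 0.58. Peg3, a paternally expressed zinc finger protein, had signals of 6646, 3539 and 3914 in wild type and 7763, 4311 and 4269 in Zmpste24-/-. Within each number Zmpste24-/- was higher, and the number 1 cultures were above all others. The difference was 0.21 (SE 0.33 unblocked, and 0.06 with the replicate block, where limma's adjusted p was 0.412). It was -0.07 without Zmpste24-/- replicate 1, where number 1 was left in wild type alone. Of its 3 tested probe sets, 1 differed in the other direction, by -0.03.

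Mest, a paternally expressed protein of the hydrolase fold abundant in mesoderm, had signals of 1974, 875 and 901 in wild type and of 1704, 1168 and 1778 in Zmpste24-/-. Wild-type cultures 2 and 3 were low and the other 4 arrays higher, and pair 1 went the other way from pairs 2 and 3. The difference was 0.39 (SE 0.36 unblocked, and 0.19 with the replicate block, where limma's adjusted p was 0.586). It was 0.19 without wild-type replicate 2 and 0.77 without wild-type replicate 1. Copg2, a coatomer subunit beside Mest that is made from the maternal copy, ranged from 481 to 871 and differed by 0.12.

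Kcnq1ot1, the paternal noncoding RNA that silences its chromosome 7 cluster, had signals of 149, 114 and 165.5 in wild type and of 207, 129 and 307 in Zmpste24-/-. It was higher in Zmpste24-/- in each pair, most in pair 3, and the groups overlapped. The difference was 0.47 (SE 0.32 unblocked, and 0.17 with the replicate block, where limma's adjusted p was 0.501), and 0.19 without Zmpste24-/- replicate 3. The other tested Kcnq1ot1 probe set, at signals of 106.6 to 190.2, gave 0.17, with 0.06, -0.30 and 0.75 in pairs 1, 2 and 3. Slc22a18, a maternally expressed transporter of that cluster, had signals of 109, 84.1 and 35.8 in wild type and 44.0, 27.2 and 56.4 in Zmpste24-/-. Cultures 1 and 2 were lower in Zmpste24-/- and culture 3 higher. The difference was -0.59 (SE 0.39), and -0.75 and -0.37 with 1 and 64 added to the signal in place of 16. Phlda2 and Ascl2 of the cluster were below the filter.

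In the Snrpn-Ube3a cluster on chromosome 7, Ube3a was the one gene whose groups did not overlap. Ube3a is a ubiquitin ligase that is imprinted in neurons and made from both copies in most other cells. Its signals were 2802, 2621 and 2877 in wild type and 3068, 2966 and 3015 in Zmpste24-/-. The difference was small, 0.13 (SE 0.12 unblocked, and 0.06 with the replicate block, where limma's adjusted p was 0.597), and remained between 0.09 and 0.15 when any 1 array was left out. Of its 6 tested probe sets, 5 were higher in Zmpste24-/-, and 2 of the 6 did not overlap and were higher in all 3 pairs. Over all 27022 probe sets, 2.22% lay wholly higher in Zmpste24-/-.

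Ndn, a MAGE family protein known to slow cell growth, had signals of 8038, 6258 and 6241 in wild type and of 7960, 6069 and 6162 in Zmpste24-/-. The partners were nearly level and number 1 was highest in both genotypes, and the difference was -0.03 (SE 0.16). Magel2, another MAGE protein, had signals of 39.9, 74.1 and 60.5 in wild type and of 48.2, 44.3 and 40.2 in Zmpste24-/-. Wild-type cultures 2 and 3 were highest, and the difference was -0.28 (SE 0.25). These signals lie close to the filter of 39.4. Peg12, a relative of the GSK3 inhibitor FRAT, ranged from 55.5 to 172 and differed by -0.01.

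The remaining paternally expressed genes had no common direction. Rasgrf1, an exchange factor for Ras, had signals of 66.9, 82.6 and 43.5 in wild type and of 73.9, 17.3 and 18.6 in Zmpste24-/-. Zmpste24-/- cultures 2 and 3 were low and culture 1 was not. The difference was -0.74 (SE 0.44 unblocked, and 0.34 with the replicate block, where limma's adjusted p was 0.578). It was -1.08 with 1 added to the signal and -0.39 with 64 added, and in the like-sex pair 1 it was 0.12.

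Impact, which restrains the stress kinase GCN2, had signals of 4335, 2472 and 2595 in wild type and of 4711, 2706 and 2944 in Zmpste24-/-. Each pair was higher in Zmpste24-/- by a like small amount, and the groups overlapped through the high number 1 cultures. The difference was 0.14 (SE 0.30 unblocked, and 0.06 with the replicate block, where limma's adjusted p was 0.554). It was -0.10 without Zmpste24-/- replicate 1, where number 1 was left in wild type alone. Sgce, the epsilon-sarcoglycan of the membrane, had signals of 3487, 1162 and 1707 in wild type and 2995, 1574 and 1771 in Zmpste24-/-. Its pairs did not share a direction, and the difference was 0.09 (SE 0.44).

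Slc38a4, an amino acid transporter, had signals of 660, 3152 and 3511 in wild type and of 647, 4394 and 3707 in Zmpste24-/-. The number 1 cultures were level with each other and far below the rest, and the difference between genotypes was 0.18 (SE 0.91). Nnat, neuronatin, ranged from 158 to 339.7 and differed by 0.16. Asb4, a maternally expressed partner of a ubiquitin ligase, ranged from 62.8 to 189 and differed by -0.11. Commd1, a maternally expressed regulator of copper handling, ranged from 2713 to 3446 and differed by 0.01.

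Other probe sets of the same genes were read beside the brightest. Of 64 member probe sets tested, 26 were higher in Zmpste24-/- in all 3 pairs, against 15.8% of the 27022 probe sets, and 4 were lower, against 16%. The groups did not overlap for 3 that were higher in Zmpste24-/-, against 2.22% of probe sets, and for 0 that were lower, against 3.03%. Probe sets of 1 gene are not independent of each other. Of 18 members with more than 1 tested probe set, the direction between genotypes differed among probe sets for 5, namely Gnas, Meg3, Ndn, Peg3 and Ube3a. A dim Gnas probe set had signals of 60.2, 64 and 61.3 in wild type and 92.7, 69.5 and 82.0 in Zmpste24-/-, and so did not overlap, whereas the brightest probe set of Gnas was level.

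**Figure D3:**
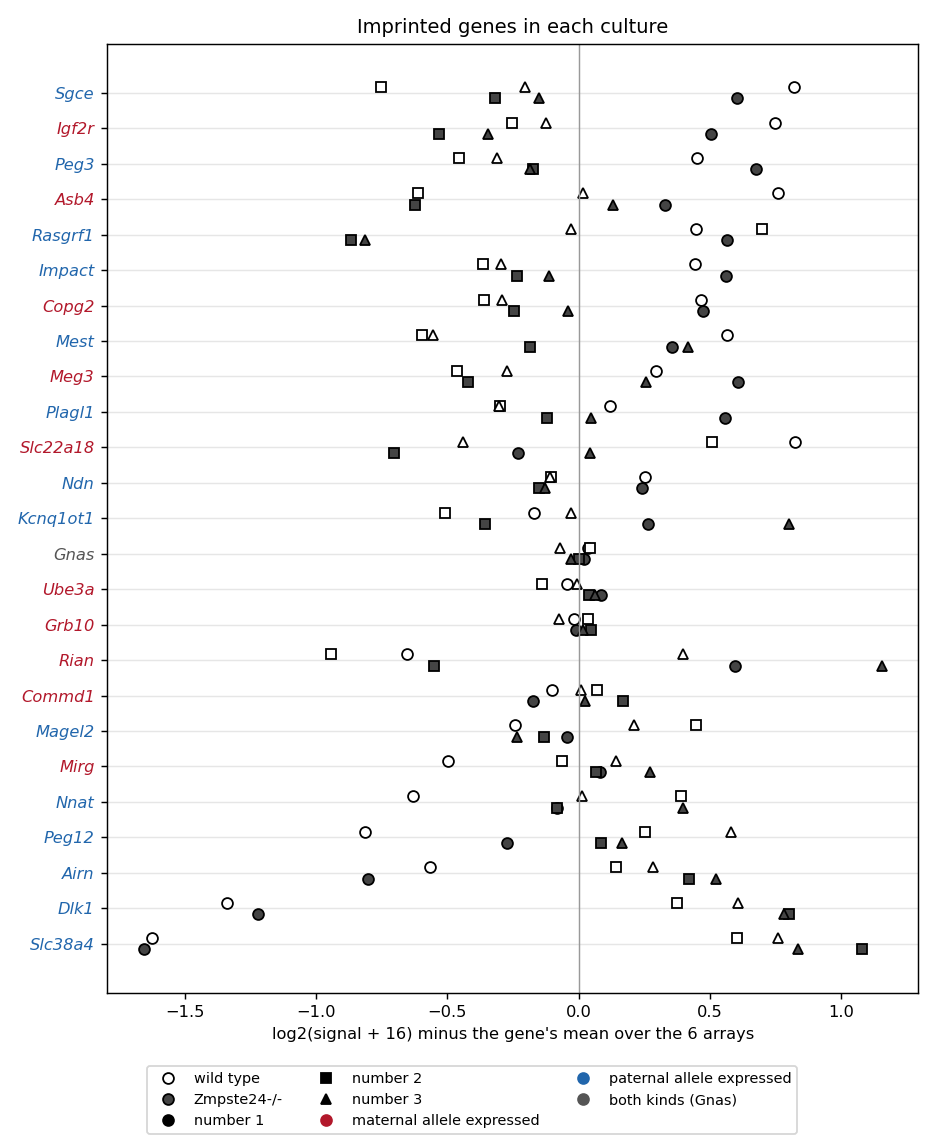
Each tested imprinted gene on each array, as log2(signal + 16) minus the mean of that gene over the 6 arrays (horizontal axis); open symbols are wild type, filled symbols Zmpste24-/-, shapes give the culture number and label colours the active parental copy. Genes are ordered by their level in number 1, whose circles lie right of the other symbols for Igf2r, Sgce and Peg3 and far left of them for Dlk1 and Slc38a4.

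The culture number separated the imprinted genes far more than the genotype did. In number 1, Slc38a4 was 5.59-fold below number 2 and Dlk1 was 3.65-fold below it, while Sgce was 2.37-fold, Asb4 2.24-fold and Igf2r 2.02-fold above it. The culture numbers were compared by an F test with genotype as a term (limma). By it, 41.6% of the 27022 probe sets and 6131 of the 13038 named genes tested passed. Of the 25 imprinted genes, 15 passed (60%). These were Airn, Asb4, Copg2, Dlk1, Igf2r, Impact, Kcnq1ot1, Meg3, Mest, Ndn, Peg3, Plagl1, Rian, Sgce and Slc38a4. By active copy, 5 of 10 maternal and 10 of 14 paternal genes passed. Nothing particular to imprinted genes is read from this count, since the background share is itself large.

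Single differences between numbers were counted at an adjusted p under 0.05 (limma). Number 1 was higher than number 2 for 11 genes, against 23.8% of probe sets, and lower for 4, namely Airn, Commd1, Dlk1 and Slc38a4, against 19.7%. Number 1 was higher than number 3 for 8 genes, against 21.5% of probe sets, and lower for 5, namely Airn, Dlk1, Peg12, Rian and Slc38a4, against 19.7%. By the same count, numbers 2 and 3 differed for 0 of 25 genes, against 0.0074% of probe sets (2 of 27022). By direction alone, number 1 was higher than number 2 for 16 of 25 genes and higher than number 3 for 14. Over the 13038 named genes tested, number 1 was higher for 7008 and 6849. Commd1 and Peg12 passed only in these single differences and not in the F test (adjusted p = 0.0785 and 0.0506).

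Slc38a4 and Dlk1 had the lowest p in the F test of the 25 genes. Slc38a4, by the signals given above, was lower in number 1, with differences of -2.48 from number 2 and -2.44 from number 3 (adjusted p = 1.37e-05, limma F test). Dlk1 was lower there with differences of -1.87 and -1.97 (adjusted p = 1.42e-05, limma F test). Both genotypes showed both differences, with no overlap between number 1 and the other 4 arrays. A second probe set of Slc38a4 gave the same direction, whereas a dim one of Dlk1, at 26.6 to 59.3, did not differ between numbers 1 and 2 (0.01).

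Igf2r was higher in number 1 by 1.02 against number 2 and 0.86 against number 3 (adjusted p = 7.63e-05, limma F test). Peg3 was higher by 0.88 and 0.81 (adjusted p = 8.10e-05, limma F test) and Impact by 0.80 and 0.71 (adjusted p = 1.69e-04). For these 3 genes both number 1 arrays lay above the other 4. Sgce was higher by 1.25 and 0.89 (adjusted p = 6.39e-04), Plagl1 by 0.55 and 0.47 (0.00148) and Ndn by 0.38 and 0.37 (0.00191). Copg2, higher by 0.77 and 0.64 (0.00291), followed the same order.

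Within the Dlk1-Dio3 cluster the members moved apart by culture number. Dlk1 was low in number 1, whereas Meg3 was higher there, by 0.89 against number 2 and 0.46 against number 3 (adjusted p = 0.00119, limma F test). All 11 tested Meg3 probe sets were higher in number 1 than in each of the other numbers, and all 11 passed. Rian was higher in number 1 than in number 2 (0.72) and lower than in number 3 (-0.80, adjusted p = 6.96e-04, limma F test). Its order of numbers, 3 above 1 above 2, was the same in both genotypes. Of its 4 tested probe sets, 3 were highest in number 3 and 1 in number 1. Removing wild-type replicate 1 turned the Rian differences into 1.05 and -0.47, removing Zmpste24-/- replicate 1 into 0.38 and -1.14, and removing Zmpste24-/- replicate 2 made the first of them 0.41. Meg3's difference from number 3 was 0.28 without wild-type replicate 3. Mirg did not pass (-0.21 and -0.41, adjusted p = 0.123), but passed without Zmpste24-/- replicate 1 (0.0375).

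In the Igf2r cluster the receptor was high in number 1 and its antisense RNA Airn low there, with differences of -0.97 from number 2 and -1.09 from number 3 (adjusted p = 0.0107, limma F test). The call of Airn was lost without Zmpste24-/- replicate 1 (adjusted p = 0.117), and a second Airn probe set, at signals of 54.4 to 73.3, went the other way by 0.22 and 0.10 and did not pass. Asb4 was higher in number 1 by 1.16 and 0.47 (adjusted p = 0.0106) and lost its call without wild-type replicate 1 (0.0607) or 2 (0.0540). Its difference from number 3 was 0.23 without wild-type replicate 1, 0.31 without wild-type replicate 3 and 0.71 without Zmpste24-/- replicate 1. Kcnq1ot1 passed narrowly (adjusted p = 0.0348), and not without Zmpste24-/- replicate 2 (0.182) or 3 (0.177). Mest passed narrowly too (adjusted p = 0.0437), and not without wild-type replicate 1 (0.133), wild-type replicate 2 (0.134) or Zmpste24-/- replicate 2 (0.134). Other settings ended both calls as well: for Mest no filter (0.0981), median centring (0.0673), no intensity trend (0.189), array weights (0.0582) and no genotype term (0.0772), and for Kcnq1ot1 no filter (0.0919), no intensity trend (0.0806) and no genotype term (0.104). Ndn did not pass with each array centred on its median (0.0900), nor did Ndn and Plagl1 without the intensity trend (0.0854 and 0.0591).

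Not every bright member followed the culture number. Grb10 (adjusted p = 0.529), Ube3a (0.655) and Gnas (0.375) differed by no more than 0.08 between any 2 numbers in the brightest probe set. Gnas passed after quantile normalization (0.0134), and so did Peg12 (0.0290). Among dim genes, Magel2, Slc22a18, Rasgrf1 and Nnat did not pass either in the brightest probe set. Dimmer tested probe sets of Slc22a18 (adjusted p = 0.00759), Grb10 (0.0334) and Commd1 (0.0370) did pass the limma F test. Number 1 differed from numbers 2 and 3 by 2.25 and 2.14 in that of Slc22a18, at signals of 2.5 to 135. The differences were 0.71 and 0.43 in that of Grb10 and -0.36 and -0.35 in that of Commd1.

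**Figure D4:**
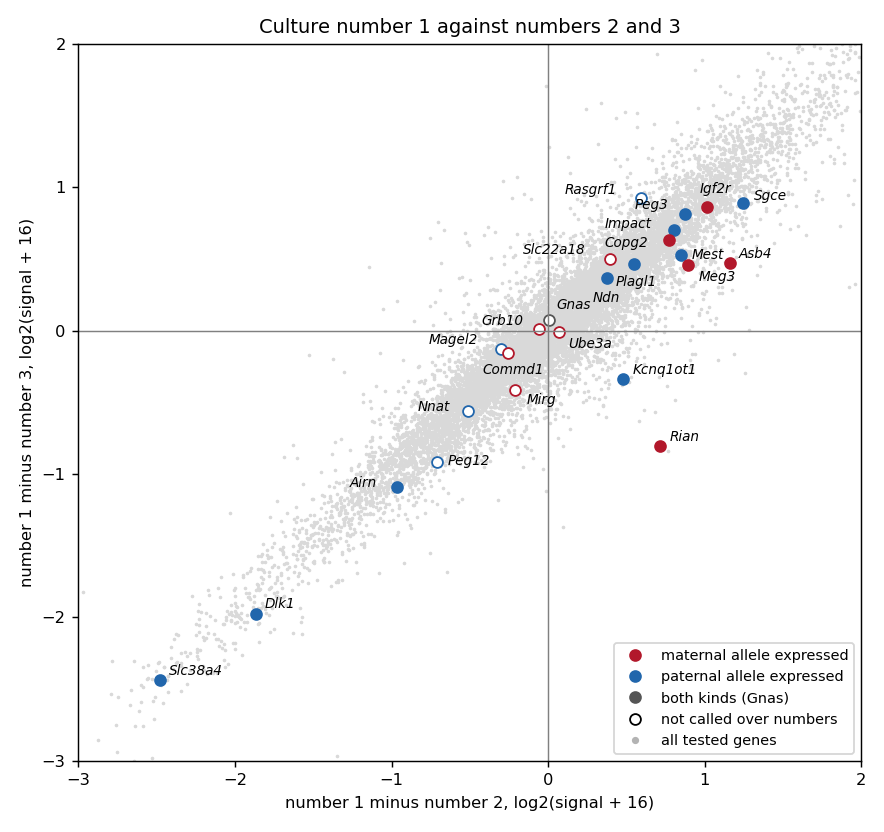
Difference of number 1 from number 2 (horizontal axis) and from number 3 (vertical axis), log2(signal + 16), for the 25 tested imprinted genes (large circles; filled where the F test over numbers passed) and all 13038 tested genes (grey; 292 lie outside the axes). Slc38a4 and Dlk1 lie at the lower left, most other filled circles at the upper right, and Rian and Kcnq1ot1 lie off the diagonal because number 3 was their highest.

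Other gene groups moved with the culture number as well. Over all 27022 probe sets, 41.6% passed the F test, and 8421 lay higher and 7349 lower on both number 1 arrays than on the other 4. Of the 13038 named genes tested, 6131 passed, and 4513 lay higher and 3782 lower. All 18 tested mitosis genes were lower in number 1, with medians of -2.13 against numbers 2 and 3 and summed signals of 10213 and 10242 there against 43257 to 48991 elsewhere. Of 13 tested macrophage markers, 13 were higher in number 1 and 11 passed, with medians of 1.62 and 1.61 and summed signals of 7884 and 14577 against 1597 to 2493. Of 5 tested epithelial markers, 3 passed and 2 lay lower on both number 1 arrays, with summed signals of 693 and 741 there against 3073 to 3583. Most of that gap came from the keratins Krt19 and Krt18, which were 28.1-fold and 5.47-fold below number 2, whereas Epcam was not lower (0.50 against number 2, not passing). Of 7 tested skeletal muscle markers, 4 passed and all 4 lay lower on both number 1 arrays, with summed signals of 1396 and 1112 there against 2769 to 5020, most of them from the actin gene Acta1 (6.88-fold below number 2). Of the 14 fibroblast markers, 7 passed, and 6 lay higher and 3 lower on both number 1 arrays. Dcn and Lum, which encode proteoglycans of the matrix, were 9.16-fold and 15.5-fold above number 2 in number 1. Among the macrophage markers, Csf1r, the macrophage growth factor receptor, had signals of 608 and 1168 in number 1 and of 270.3 to 340.4 in the other 4. The part of these groups in the differences of the imprinted genes was not tested.

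Genes that set or keep imprints were compared next. Of 28 listed regulators, 25 had a probe set and 22 were tested. Between the genotypes 0 of 22 passed with or without the replicate block. Of the 22, 17 were higher in Zmpste24-/-, as were 6394 of all 13038 named genes tested. In all 3 pairs 10 were higher, against 15.8% of probe sets, and 1 was lower, against 16%. Their median difference of 0.125 was like that of the imprinted genes. A slight lean to Zmpste24-/- was thus not particular to the imprinted genes. Dnmt3b, a DNA methyltransferase that sets new methylation, had signals of 41.6, 81.2 and 87.9 in wild type and of 51.8, 147.5 and 132.7 in Zmpste24-/-, a difference of 0.50 (SE 0.41). It was higher in each pair, with overlap. Zfp57, the zinc finger protein that keeps imprints in the early embryo, differed by 0.35 (SE 0.31) at signals of 49.3 to 116, Arid4b, a chromatin protein, by 0.27 (SE 0.17) and Atrx, a chromatin remodeller, by 0.23 (SE 0.21). Ezh2, the Polycomb methyltransferase, differed by 0.34 (adjusted p = 0.407 in limma with the replicate block) and Uhrf1, which guides DNMT1 to copied DNA, by 0.22.

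Over culture numbers, 12 of 22 regulators passed, against 41.6% of probe sets and 6131 of the 13038 named genes tested. Of the 22, 10 lay lower and 3 higher on both number 1 arrays than on the other 4. Of the 13038 named genes, 3782 lay lower and 4513 higher. Uhrf1 had signals of 263, 2168 and 2153 in wild type and of 341, 2432 and 2385 in Zmpste24-/-. Both number 1 cultures were far below the rest, with differences of -2.87 from number 2 and -2.86 from number 3 (adjusted p = 6.06e-06, limma F test). Hells, a remodeller needed for DNA methylation, had differences of -1.85 and -2.04 (adjusted p = 3.37e-05), and Ezh2 of -1.45 and -1.55 (5.25e-05). Dnmt1, which copies methylation to new DNA strands, had signals of 1147, 2400 and 2447 in wild type and of 1033, 2679 and 2485 in Zmpste24-/-. It was lower in number 1, with differences of -1.21 and -1.17 (adjusted p = 8.70e-05, limma F test). These 4 genes were low where the mitosis genes were low, and the part of cell division in them was not tested.

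The nearest tested genes on either side of the members, a set chosen after the data were seen, were read in the same way. Some of these neighbours are themselves imprinted. Of 34 neighbours, 21 were higher in Zmpste24-/-, against 6394 of the 13038 named genes tested, with a median difference of 0.02. In all 3 pairs 3 were higher, against 15.8% of probe sets, and 4 lower, against 16%. Over culture numbers, 16 of 34 passed, against 41.6% of probe sets and 6131 of the 13038 named genes tested. The median differences of number 1 from numbers 2 and 3 were 0.04 and 0.03 in the neighbours, against 0.40 and 0.08 in the members. The difference between members and neighbours was not tested.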

How the data were processed

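The authors deposited 1 linear intensity per probe set and array. The submitters' processing notes name GCOS, the Affymetrix operating software, as the tool. Its version, its settings and a genome build were not given in the sources used here. Every array averages 500.0 once the top and bottom 2% of probe sets are removed, so total RNA per cell cannot be compared, and medians ran from 56.1 to 70.3. Of 45101 probe sets, 64 controls were left out. Symbols came from the platform annotation, checked by gene identifier against a RefSeq table (GRCm38.p6): 34945 probe sets had 1 symbol, 932 several and 9160 were not listed. Those without a single symbol entered the fit and are not named.

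Values were analysed as log2(signal + 16) after leaving out the dimmest 40% of probe sets by mean over 6 arrays (under 39.4), which left 27022. Tests used limma 3.58.1 (R 4.3.3), an intensity trend and Benjamini-Hochberg adjustment over all of them at 0.05, and an SE is limma's. Genotypes were compared without a block, and culture numbers by an F test with genotype as a term. Same-numbered cultures deviated together (correlations of 0.83, 0.59 and 0.57), though 2 and 3 also did so across numbers (0.55 and 0.49), so values with the replicate block are given. With 3 arrays in each group, precision is limited by their number.

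The members and gene lists were chosen with earlier results of these data known. Every member is named. Values on each array are given for members whose genotype groups do not overlap, the 8 with the smallest p in either genotype fit and the 10 with the smallest p in the F test, and others by range. Regulators are named by the 4 smallest p in each comparison. Alternatives were pseudocounts of 1 and 64, no filter, a filter of 60%, median centring, quantile normalization, array weights, no trend, the block, a threshold of 0.1, other probe sets, numbers 2 and 3 alone and each array left out. Figures were drawn with matplotlib 3.10.9.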

Additional observations from a re-analysis of the deposited data

How the results depend on the processing

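Under every alternative run, 0 imprinted genes passed between the genotypes, and the lowest adjusted p among them was 0.244 with array weights and 0.256 with the replicate block. Over all probe sets, 0 passed in the main fit, 1 with array weights, 5 with the replicate block, 20 with numbers 2 and 3 alone, and 0 to 4 with 1 array left out, the 4 being without wild-type replicate 1. The replicate block changed no call of an imprinted gene. The median difference of the imprinted genes (0.12) was 0.11 with a pseudocount of 64, 0.09 without a filter, 0.16 with a filter of 60%, 0.14 with median centring, 0.19 with array weights, 0.16 when all probe sets of a gene were averaged and 0.03 to 0.14 with 1 array left out. The maternal median (0.08) was 0.17 with array weights and 0.02 to 0.16 with 1 array left out. The paternal median (0.15) was 0.19 with a filter of 60%, 0.20 with array weights, 0.22 with numbers 2 and 3 alone and -0.01 to 0.20 with 1 array left out. The cause of these shifts was not tested. Once an array is removed, number 1 weighs unequally in the genotypes, and the part of this in the shifts was not tested either. Between 11 (no intensity trend) and 18 (any probe set of a gene) imprinted genes passed over culture numbers, against 15 in the main fit, and 21.3% (no filter) to 56.5% (filter of 60%) of probe sets. Signals near the filter of 39.4 limit what can be said of Magel2, Rasgrf1 and Slc22a18. Groups of 3 arrays were too small to test for outlying samples.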
